A study of Mus musculus with 12 samples.

Results

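The mouse genes whose symbol is Zfp followed by a number alone encode zinc finger proteins, and they were described here in M-MDSCs from the bone marrow of aged and young mice. Members were chosen by the measured counts: of 332 genes with such a symbol in the count table, Zfp36 left out, the 203 (61.1%) that had at least 10 counts in at least 6 of the 12 libraries were taken. The table holds 23420 genes in all. The rule did not use age, and for no member did the libraries with 10 counts lie in 1 age alone. Of the members, 170 had 10 counts in all 12 libraries, and 200 were kept among the 9742 genes tested. Zfp629, Zfp74 and Zfp772 were too low to be tested. Zfp36 is left out because its protein, tristetraprolin, binds RNA through zinc fingers of another type.

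All mice were males of the inbred strain C57BL/6JNIA, and the labels name no transgene or treatment. The aged group held 6 mice of 24 months and the young group 6 mice of 6 months. M-MDSCs (monocytic myeloid-derived suppressor cells) are immature myeloid cells, which were taken from tibia marrow by their surface markers as CD11b+Ly6G-Ly6Chi, and 1 stranded RNA library was made per mouse. The comparison asks how the expression of these genes differed between M-MDSCs of aged and young mice.

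Most proteins of this kind carry C2H2 zinc fingers, short loops in which a pair of cysteines and a pair of histidines hold a zinc ion, and each finger reads a few bases of DNA. Many also carry a KRAB domain, which recruits the corepressor TRIM28 and with it SETDB1, HP1 and DNA methylation, and such KRAB zinc finger proteins are known for silencing transposable elements and imprinted genes. Others act at promoters without KRAB, or bind RNA, ribosomes or ubiquitin ligases instead of DNA.

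Library totals were 8737941 to 16300374 counts in aged and 4613239 to 9079237 in young mice, and the S number that each library carries in the table's headers is lower in every young than in every aged mouse. What the number records is not stated, and anything that follows it cannot be told apart from age. Among 8 monocyte markers Ly6c2 was called higher, at a median of 740 CPM in aged and 540.5 CPM in young mice, and Itgam lower. CPM are counts scaled to library size with TMM factors. The markers were mixed for a label of Ly6G- monocytic cells. Of the monocyte markers, Itgam was at a median of 2823 and 3339 CPM (aged and young) and Mpeg1 at 419.6 and 414 CPM. Of the neutrophil and promyelocyte list, the primary granule genes Elane (3.14 and 1.26 CPM), Mpo (5.59 and 2.34 CPM) and Prtn3 (4.84 and 1.70 CPM) were low. Genes of later granules were high, with Ngp at a median of 39395 CPM in aged and 31259 CPM in young mice, Ltf at 20578 and 21298 CPM and the neutrophil receptor Cxcr2 at 1499 and 1327 CPM. The monocyte genes Ccr2 and F13a1 were low too, with Ccr2 at 27.4 and 31.8 CPM and F13a1 at 14.9 and 24.4 CPM. M-MDSC is therefore used here as the name on the label, and 8 of 11 neutrophil and promyelocyte markers were called higher in aged mice. The summed CPM of 7 resident macrophage markers was 41.0 to 785 in aged and 34.6 to 50.7 in young mice. Of those tested, 6 of 6 were called higher. That of 12 proliferation genes was 493 to 1089 in aged and 886 to 1622 in young mice. Of these, 5 were called lower and 7 were not called, where 23.0% of all genes were called lower. On the log2 scale, aged minus young, Mki67 was at -2.01, Cenpe at -1.47, Top2a at -0.62, Kif11 at -0.59 and Bub1 at -0.53. Those not called were Tpx2 (-0.39), Birc5 (-0.12), Aurkb (-0.05), Cdk1 (-0.04), Plk1 (0.01), Ccnb2 (0.08) and Ccnb1 (0.17). The fall was thus not shared by the whole list. The summed CPM of 6 dendritic cell markers was 0.749 to 2.33 in aged and 3.12 to 7.74 in young mice, without overlap. Most of this sum was Clec9a, at a mean of 0.83 CPM in aged and 4.51 CPM in young mice. The other markers had at most 7 counts in any library. Clec9a, the 1 tested, was called lower (-2.45, edgeR adjusted p = 2.89e-05). None of these lists had all its markers at 0, and no plasma cell or erythroid marker was tested, of which Jchain, Hbb-bs and Hbb-bt were not analysed here. The summed CPM of the 4 erythroid markers analysed was 0.535 to 5.24 in aged and 0 to 0.355 in young mice, again without overlap. Most of it was Alas2, with at most 34 counts in any aged and 2 in any young library. The part of these cells in the results on zinc finger genes was not tested. In bulk libraries, fewer cells of a type and less RNA per cell cannot be told apart.

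In aged mice, more members were lower than higher. The edgeR quasi-likelihood test called 55 of 200 members (27.5%) lower at an adjusted p under 0.05, where 23.0% of all genes tested were called lower, and 14 members (7.0%) higher, where 22.4% of all genes were called higher. The share called lower was thus close to that of all genes, and the share called higher was below it. The remaining 131 members were not called. Their log2 fold changes, aged minus young, ran from -1.64 in Zfp467, a factor known to turn marrow stromal cells towards fat, to 1.10 in Zfp709, with a median of -0.12 against 0.01 for all genes. The value was negative for 130 of 200 members (65.0%) and for 49.5% of all genes. The CPM of aged and young libraries did not overlap for 28 members that were lower, where 12.1% of all genes had such a gap, and for 3 that were higher, where 9.68% did. Without TMM factors, which correct library totals for their composition, the calls became 68 lower and 6 higher, where 28.4% of all genes were lower and 17.3% higher in that fit. With a correction for gene length they became 35 lower and 17 higher, where 16.5% of all genes were lower and 18.3% higher. With 1 library left out at a time, 43 to 58 members were called lower and 6 to 16 higher; the higher calls fell to 9 without aged replicate 4, 9 without aged replicate 5, 6 without aged replicate 6 and 6 without young replicate 6.

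**Figure D1:**
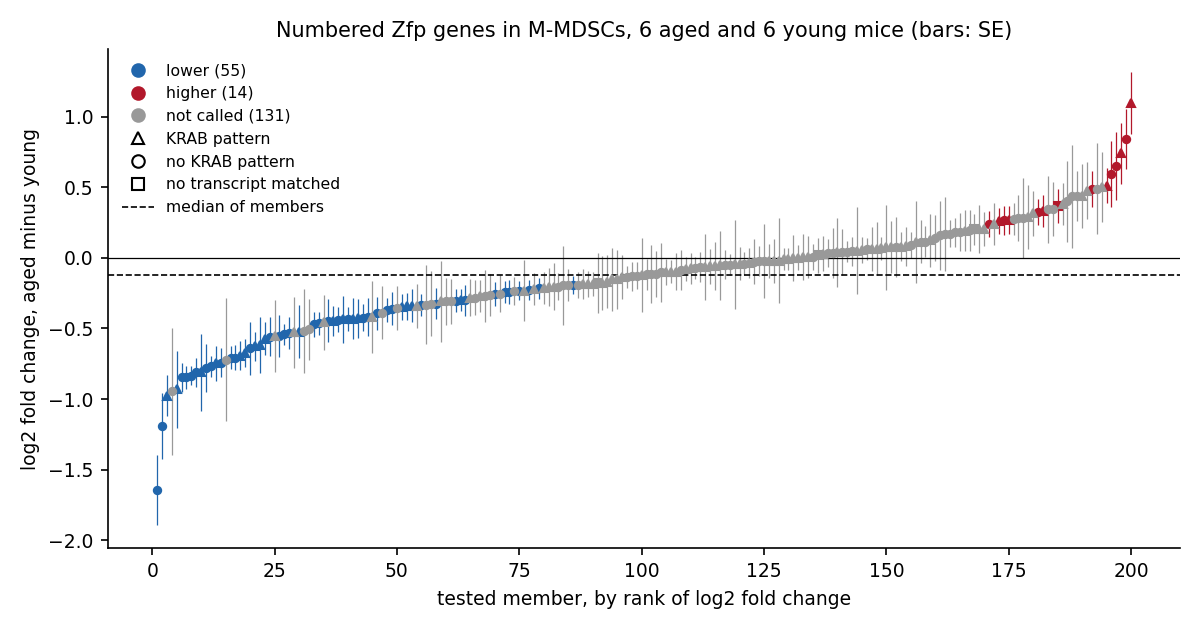
Log2 fold change (aged minus young) of each of the 200 tested members on the vertical axis, in rank order, with its standard error; colour gives the call and the symbol gives whether a KRAB pattern was found. The 55 members called lower lie at the left, the 14 called higher at the right, and the dashed median is at -0.12.

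The shift was visible mouse by mouse. Members took 0.432 to 0.463% of all counts in aged libraries and 0.528 to 0.673% in young libraries, so the ages did not overlap. Young replicates 5 and 6 were highest, at 0.673 and 0.637%, with the other young libraries at 0.528 to 0.587%. The mean of log2(CPM + 0.5) over the 200 tested members was 3.42, 3.45 and 3.52 (lowest, median, highest) in aged mice and 3.53, 3.59 and 3.69 in young mice, again without overlap. The same mean over genes of like exon length was 4.72 to 4.81 in aged and 4.80 to 4.89 in young mice, which overlapped. Members minus like-length genes gave -1.30 ± 0.04 in aged and -1.25 ± 0.04 in young mice (SD, n = 6 each), a difference of -0.05 with overlapping ranges. Of 203 members, 196 to 203 had 10 counts in each aged library and 177 to 202 in each young library, where the smallest totals lie.

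**Figure D2:**
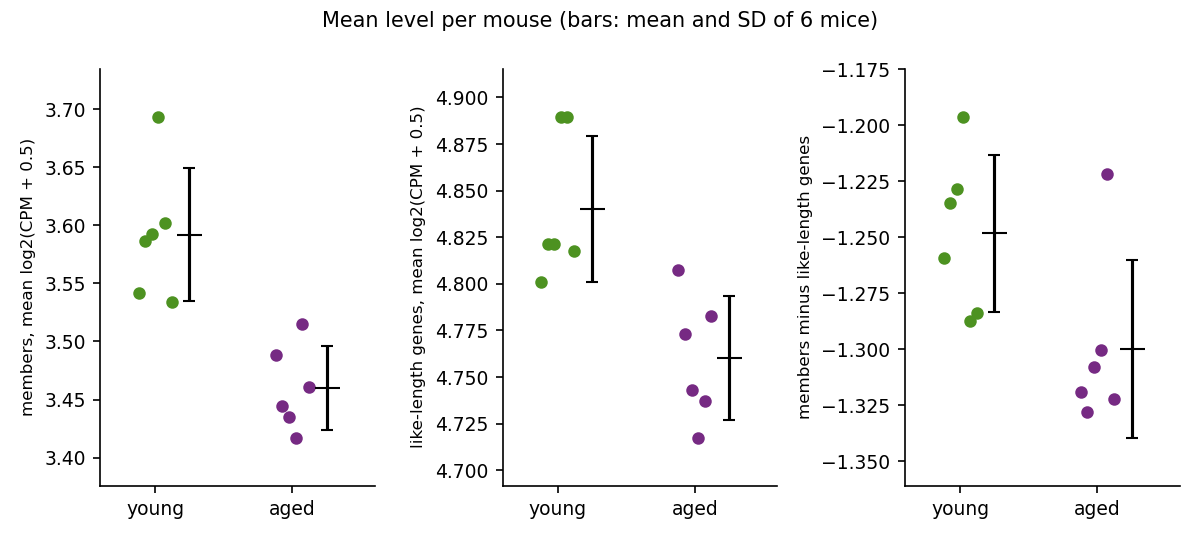
Mean log2(CPM + 0.5) per mouse of the tested members, of the genes nearest to them in exon length, and the difference of both, each point 1 mouse and bars the mean and SD of 6 mice. Aged mice lie below all young mice for the members, with levels of 3.42 to 3.52 against 3.53 to 3.69, and overlap with them in the other panels.

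Exon length went along with the change, in members and in other genes, and its part in the results was not tested. Tested members had 1016 to 13844 exonic bases, with a median of 3632 against 2890 for all genes tested. Spearman's rho between log2 fold change and exon length was -0.31 over the 200 members and -0.48 over 9542 other genes, all measured in the same 12 libraries. In the longest length quintile of members, from 5236 bases, 24 of 40 were called lower, and 57.1% of the 1523 other genes in that range were. In the shortest quintile, up to 2641 bases, 3 of 40 were lower and 6 higher, where other genes gave 8.78% and 31.9%. The next quintile, from 2665 to 3297 bases, held 11 lower and 1 higher of 40, where 18.1% of other genes were lower and 19.3% higher. The third, from 3305 to 3927 bases, held 9 lower and 1 higher, where 22.2% of other genes were lower and 13.7% higher. The fourth, from 3958 to 5221 bases, went the other way, with 8 of 40 lower where 34.2% of other genes were lower, and 4 higher where 10.9% were. Set against the 200 other genes nearest to each member in exon length, the median member lay -0.09 lower on the log2 scale, 119 of 200 (59.5%) were below the median of those genes, and the like-length genes were called lower in 27.8% and higher in 15.7% on average. Relative to like-length genes the members ran from -1.58 (Zfp467) to 1.17 (Zfp709), and the median over members was -0.13 with no filter on low counts and -0.05 both with libraries thinned to the smallest total and with the aged libraries highest in macrophage markers left out.

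**Figure D3:**
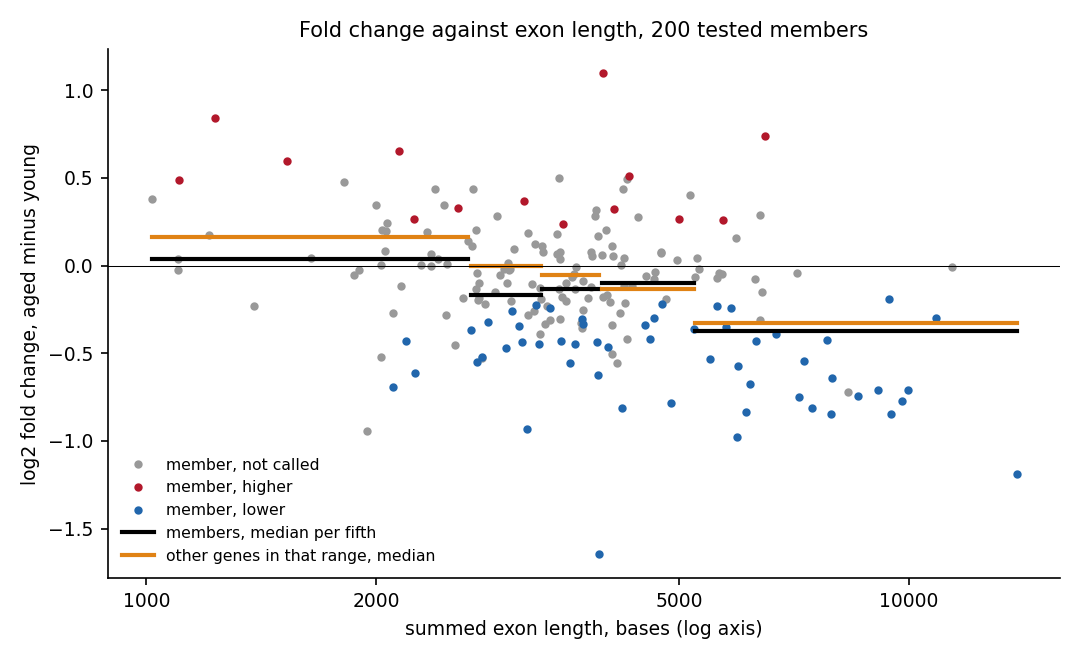
Log2 fold change (aged minus young) of each tested member against its summed exon length in bases on a log axis, coloured by call; black lines give the median of each quintile of members and orange lines that of the other genes in the same length range. The medians of the other genes fall from quintile to quintile, those of the members do not fall steadily, and both are lowest in the longest quintile, at -0.37 (members) and -0.32 (other genes), and the black line lies under the orange one in every range but the fourth.

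The proteins differ in how many fingers they carry and in whether they carry KRAB. In the longest open reading frame of the GENCODE M21 transcripts (GRCm38), found for 199 of 203 members, the C2H2 spacing occurred 0 to 36 times with a median of 9, a KRAB pattern was found in 92 and a SCAN pattern, a dimerization domain, in 7. Zfp142 held the most fingers, 36. The repeat is shown here for members that fell, as 1 finger with its linker from Zfp142 (chr1:74565128-74588028, minus strand) and 2 from Zfp568 (chr7:29983955-30028282, plus strand), with the codons of the zinc-binding cysteines and histidines in capitals.
Zfp142, transcript bases 2303 to 2380: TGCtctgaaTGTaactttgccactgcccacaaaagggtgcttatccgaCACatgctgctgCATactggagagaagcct
Zfp568, transcript bases 1786 to 1863: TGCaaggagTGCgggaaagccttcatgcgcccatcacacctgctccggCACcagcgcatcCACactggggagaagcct
Zfp568, transcript bases 1954 to 2031: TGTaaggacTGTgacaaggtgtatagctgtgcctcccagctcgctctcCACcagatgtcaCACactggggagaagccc
The Zfp568 stretches share 47 of 78 bases. For 12 tested members over 10% of 100-base stretches occur in another gene too, and their counts are uncertain.

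Members with and without a KRAB pattern were set side by side. Of 106 tested members without it, 37 were lower and 7 higher, with a median log2 fold change of -0.19, and of 90 with it, 18 were lower and 6 higher, with a median of -0.07, beside 23.0% lower and 22.4% higher over all genes. The difference of these shares was not tested. By length, over the median member length, 29 of 56 without KRAB (51.8%) and 9 of 43 with KRAB (20.9%) were lower, while at or under it the counts were 8 of 50 and 9 of 47. Beside these, 34.2% and 57.1% of other genes were lower in the longest 2 quintiles, and the long members without KRAB had a median of 5020.5 bases against 4504 with KRAB. Median levels were 5.18 CPM per kilobase of exon without and 2.29 with KRAB, against 2.87 over all members and 8.54 over all genes tested. Spearman's rho between the change and the number of fingers was -0.05 over 196 members, and the share called lower was 28.6%, 28.0%, 26.8% and 29.8% for members with up to 3, 4 to 8, 9 to 13 and 14 or more fingers. With the length of the reading frame it was -0.34. In related families, 8 of 32 tested numbered Zbtb genes, which join zinc fingers to a BTB domain, were lower and 4 higher, and 1 of 14 Zkscan and Zscan genes was lower and 1 higher, beside 23.0% lower and 22.4% higher over all genes.

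Among KRAB zinc finger proteins of known silencing function, all 3 that could be tested fell in aged mice, with no overlap between ages, where 23.0% of all genes were called lower and 12.1% were lower without overlap. This list and the other lists by role below were chosen with earlier results of these data known. Zfp445, which keeps the methylation of imprinted genes, had 83.5, 93.8 and 112 CPM (lowest, median, highest) in aged mice and 125, 142 and 188 CPM in young mice. Every aged library was under every young one, and the log2 fold change was -0.67 ± 0.10 (SE; edgeR adjusted p = 0.000127). Zfp809, which binds and silences retroviruses that use a proline tRNA primer, had 10.9 ± 1.12 CPM in aged and 17.6 ± 1.99 CPM in young mice (SD, n = 6 each), with an aged maximum of 12.9 CPM. Its aged libraries again lay below all young ones, at a log2 fold change of -0.69 ± 0.10 (edgeR adjusted p = 0.000147), and it was -0.80 relative to like-length genes, since its exons span 2107 bases. Zfp568, which represses a placental transcript of Igf2, had 11.3, 13.7 and 17.5 CPM in aged and 17.8, 23.9 and 26.3 CPM in young mice. These ranges nearly met, at young replicate 10, and the log2 fold change was -0.75 ± 0.12 (edgeR adjusted p = 0.000341). These 3 calls were kept in all 23 other fits, but the length correction reduced Zfp445 to -0.39 and Zfp568 to -0.39, with Zfp809 at -0.78. Zfp57, the other imprint guardian, had 0 counts in all 12 libraries, which allows up to 0.188 to 0.643 CPM per library at a floor of 3 counts, and Zfp932 and Zfp708 were outside the count rule.

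Of the partners of KRAB, listed as 20 corepressor and heterochromatin genes, 19 were tested, 6 were called lower (31.6%) and 1 higher, with a median log2 fold change of -0.19. This is near the 23.0% of all genes called lower and the 34.2% of other genes in the quintile that holds the list's median length of 4179 bases, and 4 were called lower with the length correction. Trim28 itself had 29.2 to 37.4 CPM in aged and 29.6 to 39.3 CPM in young mice, at -0.02 (edgeR adjusted p = 0.852). Atrx, a chromatin remodeller that deposits histone H3.3 at repeats, had 55.3, 68.4 and 105 CPM in aged and 146, 159 and 265 CPM in young mice. This was the widest gap of the list, at -1.35 ± 0.17 (edgeR adjusted p = 5.89e-05). Chd4 of the NuRD complex (-0.52), the SETDB1 cofactor Atf7ip (-0.34), Setdb1 (-0.31), the HP1 gene Cbx5 (-0.58) and Dnmt1 (-0.49) were the others called lower, of which Chd4 and Atf7ip also had no overlap. Pphln1, of the HUSH complex, was called higher (0.18, edgeR adjusted p = 0.0476).

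RefSeq promoters (GRCm38.p6, 250 bases before to 50 after a gene's start) were found for 168 members. For members the promoter nearest the gene's start in the count table was taken. For tested genes and for all genes it was the first listed of each gene, so the sets were not picked alike. A GC box (GGGCGG on either strand) occurred in 52.4% of the members' promoters, in 66.0% of those of tested genes and in 35.9% of those of all genes, and an ETS core (CCGGAA on either strand) in 39.3%, 31.8% and 15.2%. Members called lower held a GC box in 63.4% and an ETS core in 34.1% of 41 promoters, members called higher in 58.3% and 41.7% of 12. Promoters of members with KRAB had a median GC content of 53.7% and 12 CpG, and those without KRAB 61.7% and 20 CpG. The promoters of Zfp445, Zfp809 and Zfp709, of which the first pair are silencers that fell and the last the member that rose most, are shown 5′ to 3′ on the gene's strand, with matches to these motifs, to CCAAT (either strand), to the E-box CACGTG, to TATAAA and to the NRF1 site in capitals.
Zfp445, chr9:122865957-122866256, minus strand: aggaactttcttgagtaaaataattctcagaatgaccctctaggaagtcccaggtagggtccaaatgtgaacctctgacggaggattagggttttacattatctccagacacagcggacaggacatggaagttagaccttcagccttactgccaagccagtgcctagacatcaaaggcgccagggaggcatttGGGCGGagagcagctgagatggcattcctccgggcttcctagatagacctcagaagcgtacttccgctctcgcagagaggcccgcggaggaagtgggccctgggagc
Zfp809, chr9:22225453-22225752, plus strand: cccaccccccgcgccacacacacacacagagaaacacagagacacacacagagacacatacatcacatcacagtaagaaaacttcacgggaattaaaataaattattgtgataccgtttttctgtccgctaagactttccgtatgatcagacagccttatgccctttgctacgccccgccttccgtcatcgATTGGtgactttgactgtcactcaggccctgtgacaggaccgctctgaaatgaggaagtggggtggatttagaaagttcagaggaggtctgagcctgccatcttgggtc
Zfp709, chr8:71881818-71882117, plus strand: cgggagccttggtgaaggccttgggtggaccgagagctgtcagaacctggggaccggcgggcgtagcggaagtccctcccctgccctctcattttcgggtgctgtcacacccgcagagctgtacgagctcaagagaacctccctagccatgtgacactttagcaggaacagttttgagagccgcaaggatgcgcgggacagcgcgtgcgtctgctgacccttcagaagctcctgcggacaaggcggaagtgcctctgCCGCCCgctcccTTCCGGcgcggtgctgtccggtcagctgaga
The Zfp445 promoter held 1 GC box, that of Zfp809 1 CCAAT box and that of Zfp709 1 GC box and 1 ETS core. CCAAT occurred in 47.6% of the members' promoters, 39.4% of those of tested genes and 37.9% of all, CACGTG in 8.33%, 10.5% and 7.24%, TATAAA in 4.17%, 6.48% and 14.2%, and the NRF1 site in 4.17%, 2.47% and 0.977%.

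Among members that act at promoters or with chromatin complexes, 9 of 16 tested were called lower and none higher, with a median log2 fold change of -0.23, where 23.0% of all genes were lower and 22.4% higher. The list has a median exon length of 4601 bases, in a quintile where 34.2% of other genes were lower. Zfp292, a long gene of 9977 exonic bases, fell most of those called, from 106, 115 and 129 CPM in young mice to 58.2, 71.4 and 81.8 CPM in aged mice. No aged library reached a young one, and the log2 fold change was -0.71 ± 0.08 (edgeR adjusted p = 2.66e-05), which the length correction reduced to -0.17 (0.0491). Zfp592, which sits with Zfp687 and ZMYND8 in the Z3 complex of enhancers and promoters, had 71.4, 75.7 and 88.6 CPM in aged and 103, 111 and 126 CPM in young mice. This too was a full separation, at -0.54 ± 0.08 (edgeR adjusted p = 9.70e-05), and -0.18 with the length correction. Its partner Zfp687 was called at -0.30 ± 0.11 (edgeR adjusted p = 0.0367) with 65.7 to 78.6 CPM in aged and 70.1 to 114 CPM in young mice, which overlapped; its call was lost without any of aged replicates 1, 2, 5, 6 and 7 or young replicates 5 and 6 (edgeR adjusted p = 0.0568 to 0.0907). Zfp131, a factor with a BTB domain, had 26.6 to 33.5 CPM in aged and 35.7 to 48.3 CPM in young mice, at -0.47 ± 0.09 (edgeR adjusted p = 0.000854).

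The smaller falls of this list were near the threshold. Zfp335, a coactivator whose loss causes microcephaly, was at -0.42 (edgeR adjusted p = 0.0212), and Zfp143, which drives promoters of small RNAs and many coding genes, at -0.26 (0.0209). Zfp217, a partner of the CoREST repressor complex, was at -0.24 (0.0214), Zfp263 at -0.23 (0.0169) and Zfp148, which binds GC-rich promoters, at -0.19 (0.0207). The libraries of Zfp263 and Zfp148 did not overlap between ages, at 29.3 to 32.5 CPM in aged against 33.1 to 40.0 CPM in young mice, and at 89.0 to 103 against 104 to 122 CPM. With the correction for gene length Zfp148 turned to 0.31 (edgeR adjusted p = 0.00478), a call in the other direction, and Zfp217 to 0.02, while Zfp335 (-0.25, 0.130) and Zfp687 (-0.13, 0.313) were no longer called. Under the replicate block on 8 libraries Zfp263 (0.0951) and Zfp148 (0.165) were not called, and with the GC correction Zfp148 was not (0.0783). Zfp335, Zfp687, Zfp143, Zfp217 and Zfp148 were not called without the aged libraries highest in macrophage markers (edgeR adjusted p = 0.0974, 0.109, 0.0750, 0.125 and 0.104). Zfp335 was also lost without young replicate 5 (0.0546) or 6 (0.0557), Zfp143 without aged replicate 6 (0.0521), Zfp217 without aged replicate 2 (0.0586) and Zfp148 without young replicate 1 (0.0501).

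The members of this list that were not called were Zfp384 (-0.20), Zfp746 (-0.13), which represses the gene of PGC-1α, Zfp644 (-0.05), a partner of the methyltransferase G9a, Zfp281 (0.04), Zfp219 (0.08), Zfp703 (0.11) and Zfp318 (-0.72). Zfp384 was called lower in 4 other fits, among them that without TMM factors (-0.30, edgeR adjusted p = 0.0288). Zfp746 was called lower in that fit alone (-0.22, 0.0350). Zfp281, a GC-box factor of stem cells, had 81.2, 89.0 and 98.4 CPM in aged and 74.5, 87.5 and 99.9 CPM in young mice, so its ranges coincided. Its gene is long (5275 bases), and it was called higher at 0.26 with the length correction (edgeR adjusted p = 0.0181), as was Zfp644 at 0.20 (0.0396). Zfp318, which B cells need to make IgD, was low, with 0.277, 0.986 and 3.23 CPM in aged and 1.17, 2.07 and 2.82 CPM in young mice. The highest value belonged to an aged mouse, and without aged replicate 1 its log2 fold change was -1.18 (edgeR adjusted p = 0.0209). Zfp462, Zfp423 and Zfp521 had totals of 7, 5 and 13 counts over all libraries and Zfp827 one of 8, outside the rule.

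Members that act on RNA, ribosomes or ubiquitin were called lower in 5 of 9 tested, and none was called higher, with a median log2 fold change of -0.30, beside 23.0% lower and 22.4% higher over all genes. Zfp106, which binds GGGGCC-repeat RNA, had 102, 124 and 139 CPM in aged and 171, 206 and 224 CPM in young mice. The ages were apart, at -0.71 ± 0.09 (edgeR adjusted p = 4.65e-05), and -0.22 with the length correction. Zfp207 (BuGZ), which brings BUB3 to spindles and joins the spliceosome, had 152, 169 and 185 CPM in aged and 186, 194 and 243 CPM in young mice. Its highest aged and lowest young library nearly met, at -0.30 ± 0.08 (edgeR adjusted p = 0.00784), and without the aged libraries highest in macrophage markers the adjusted p was 0.0502. Zfp346, which binds double-stranded RNA, was at -0.56 ± 0.14 (0.00534), Zfp622, which recycles factors of the large ribosomal subunit, at -0.32 ± 0.11 (0.0245), and Zfp91, a ubiquitin ligase acting on NIK, at -0.23 ± 0.07 (0.0149), each with overlapping libraries.

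Zfp598, the ligase that marks collided ribosomes, had 11.6, 14.2 and 16.5 CPM in aged and 11.8, 16.7 and 25.4 CPM in young mice, which overlapped, and was not called (-0.39 ± 0.19, edgeR adjusted p = 0.107). Without young replicate 2 it was called lower (-0.47, edgeR adjusted p = 0.0491). Zfp326, Zfp830 and Zfp330 lay at -0.19, -0.13 and 0.04 with adjusted p of 0.595, 0.303 and 0.853. The calls of Zfp622 and Zfp91 were near the threshold: Zfp622 was lost under the replicate block (0.254), with the GC correction (0.0575) and without aged replicate 6 (0.0588), aged replicate 7 (0.0502), young replicate 6 (0.0587) or young replicate 9 (0.0608), and Zfp91 was at 0.0087 with the length correction and lost without the aged libraries highest in macrophage markers (0.0610). Zfp593 had 47 counts in all and was outside the rule, and Zfp638 was not analysed here.

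**Figure D4:**
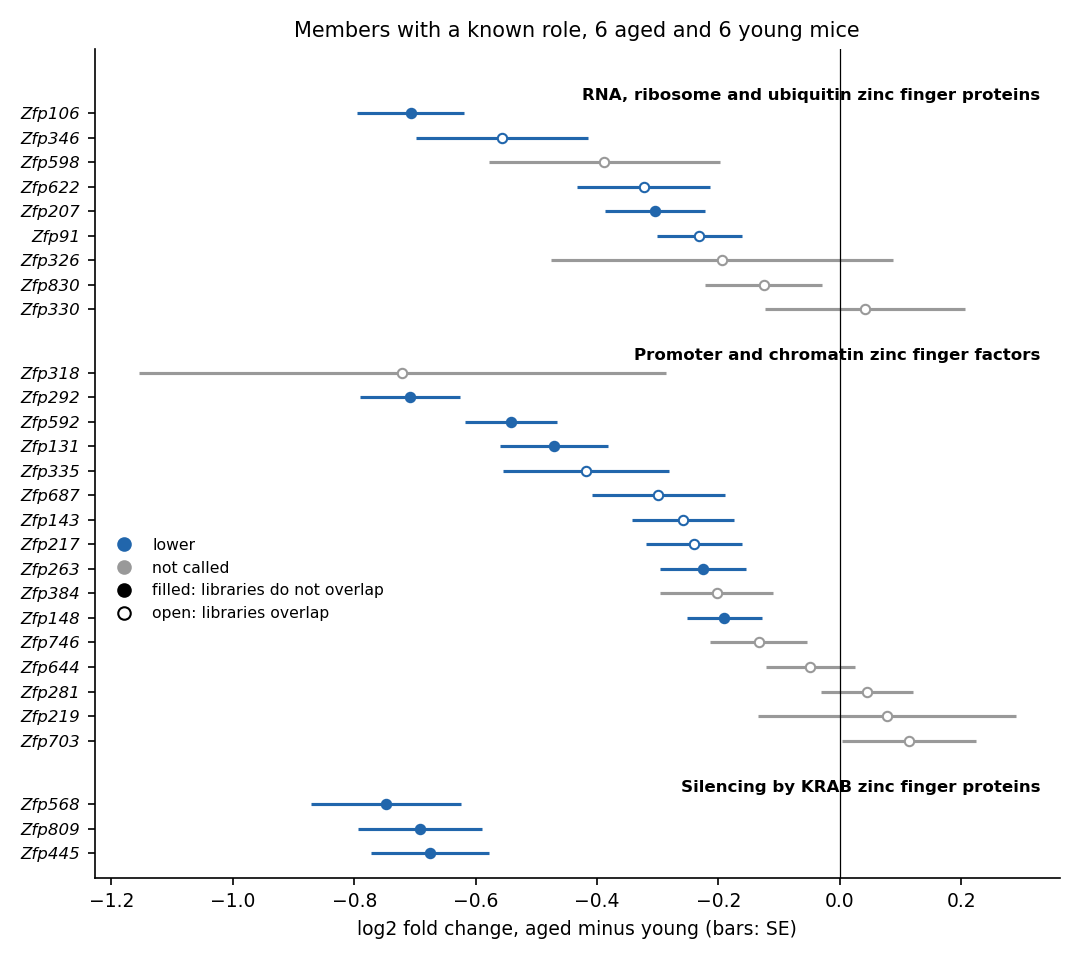
Log2 fold change (aged minus young) with its standard error on the horizontal axis for the 28 tested members of the role lists, blue where called lower and grey where not called, filled where aged and young libraries did not overlap. Of the 28, 17 were called lower and none higher, where 23.0% of all genes were lower and 22.4% higher, and the 3 KRAB silencers lie between -0.75 and -0.67. The lists were chosen with earlier results of these data known, so their shares are no independent contrast with all genes.

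Members on none of the role lists were called lower in 38 of 172 (22.1%) and higher in 14 (8.14%), with a median log2 fold change of -0.08, and this share of lower calls is near the 23.0% of all genes, of which 22.4% were higher. Since the role lists were chosen with earlier results of these data known, this share is no independent contrast with theirs. The largest falls among members whose libraries did not overlap were led by Zfp467. Its CPM was 1.07, 1.30 and 2.68 in aged and 3.86, 5.40 and 6.29 in young mice. The aged values clustered near 1.3 CPM except in aged replicates 1 and 2, both at 2.68 CPM, which are also highest in macrophage markers, and all lay below the young ones, and the gene was 3.12-fold lower (-1.64 ± 0.25, edgeR adjusted p = 0.000192). Zfp704, the longest member with 13844 exonic bases and a single finger, had 2.31, 4.61 and 5.70 CPM in aged and 6.04, 10.7 and 12.9 CPM in young mice. The ranges lay close, the fall was 2.28-fold (-1.19 ± 0.23, edgeR adjusted p = 0.00102), and with the length correction it was -0.46 and not called (0.0878). Zfp182, an X-linked member with KRAB, had 5.36, 7.39 and 8.59 CPM in aged and 11.8, 13.4 and 18.4 CPM in young mice, a clear gap at -0.98 ± 0.14 (edgeR adjusted p = 0.000150).

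A group of members on chromosome 18 fell by similar amounts at high counts. Zfp608, which represses the Rag genes in thymocytes, had the smallest p of all members, with 78.5, 85.3 and 96.5 CPM in aged and 140.4, 152 and 169 CPM in young mice. Its ages were far apart relative to their spread, at -0.83 ± 0.07 (edgeR adjusted p = 4.65e-06). Zfp407 had 59.1, 67.3 and 73.5 CPM in aged and 103, 119 and 140.3 CPM in young mice, also apart, at -0.85 ± 0.08 (edgeR adjusted p = 6.15e-06). Zfp236, with 30 fingers, had 55.7, 65.2 and 82.8 CPM in aged and 107, 114 and 139.5 CPM in young mice, at -0.85 ± 0.10 (edgeR adjusted p = 3.16e-05). Of the 8 members on this chromosome 5 were lower and 1 higher, with a median exon length of 5799 bases, and of the 216 other tested genes there, with a median of 3331 bases, 25.5% were lower. In the longest quintile, which holds the members' median length, 57.1% of other genes were lower.

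The remaining large falls were of like size. Zfp142 had 25.5, 29.3 and 36.8 CPM in aged and 44.1, 51.0 and 59.6 CPM in young mice, at -0.81 ± 0.10 (edgeR adjusted p = 4.33e-05). Zfp831 had 66.9, 70.1 and 85.6 CPM in aged and 114, 124 and 141 CPM in young mice, at -0.77 ± 0.08 (edgeR adjusted p = 9.38e-06). In both, every aged library was below every young one. Zfp276 had 57.5, 61.8 and 72.5 CPM in aged and 78.4, 88.1 and 159 CPM in young mice, and its young libraries spread widely, with replicates 5 and 6 highest, and the log2 fold change of -0.78 had a larger error of 0.17 (edgeR adjusted p = 0.00193). Among the 10 largest falls of called members without overlap, those furthest down relative to like-length genes were Zfp467 (-1.58), Zfp182 (-0.75), Zfp276 (-0.65), Zfp704 (-0.61) and Zfp608 (-0.60), while Zfp831, with 9805 exonic bases, was at -0.30. Of these 10 falls, Zfp568 included, all but Zfp704 were called in each of the 23 other fits. The length correction changed their size unequally. It reduced Zfp831 to -0.23, Zfp236 to -0.34, Zfp407 to -0.44, Zfp142 to -0.44 and Zfp608 to -0.55. Zfp467 was at -1.54, Zfp182 at -0.71 and Zfp276 at -0.59 with it.

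**Figure D5:**
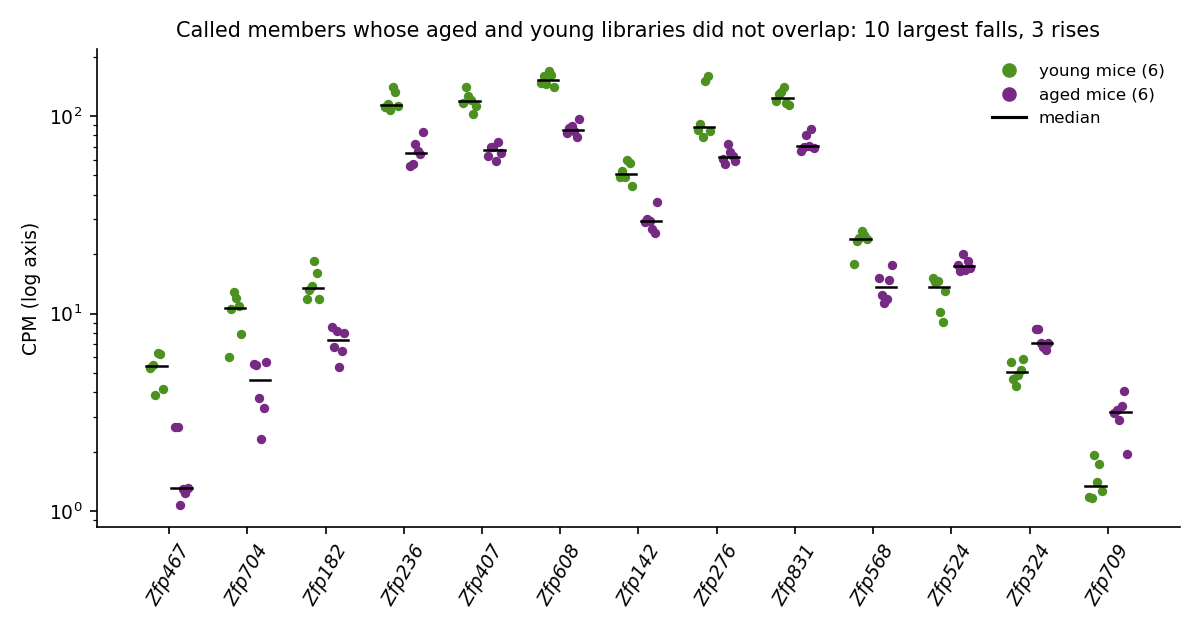
CPM per mouse on a log axis for the called members whose aged and young libraries did not overlap, the 10 with the largest falls and the 3 that rose; each point is 1 mouse and the black line the median of 6. Zfp467 is lowest in aged mice, at 1.07 to 2.68 CPM, and Zfp709, Zfp324 and Zfp524 show the reverse order of ages.

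The 14 members called higher had mean levels of 2.28 (Zfp709) to 45.5 CPM (Zfp319). Zfp709, a KRAB member with 18 fingers at chr8:71882068-71892565, had 1.94, 3.19 and 4.07 CPM in aged and 1.17, 1.34 and 1.93 CPM in young mice. The highest young and lowest aged library nearly coincided, and the gene was 2.14-fold higher (1.10 ± 0.22, edgeR adjusted p = 0.00124). Zfp324, also with KRAB, had 6.53, 7.07 and 8.39 CPM in aged and 4.29, 5.04 and 5.90 CPM in young mice, at 0.51 ± 0.13 (edgeR adjusted p = 0.00439). Zfp524, a short gene of 1105 exonic bases with 4 fingers, had 16.4, 17.3 and 20.1 CPM in aged and 9.06, 13.7 and 15.1 CPM in young mice, at 0.49 ± 0.13 (edgeR adjusted p = 0.00592). These 3 were the rises without overlap. Zfp524 shares 42.9% of its 100-base stretches with another gene, so its counts are uncertain, and with the length correction it was 0.18 and not called (0.212).

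The most abundant members per kilobase of exon all lay below 0. Zfp207 led with 50.5 CPM per kilobase, followed by Zfp516 (45.3), Zfp217 (43.8), Zfp652 (41.2) and Zfp710 (36.3), with SDs over the 12 libraries of 4.56 to 8.39 CPM per kilobase, so that the first 4 neighbours differ by less than either SD, and Zfp652 and Zfp710 by more than the SD of Zfp710. Zfp516, which works with PRDM16 in brown fat, had 239, 310.4 and 339 CPM in aged and 368, 404 and 446 CPM in young mice. These were apart, at -0.42 ± 0.09 (edgeR adjusted p = 0.00224), and -0.02 with the length correction, where the call was lost. Zfp652, a partner of the ETO family repressor CBFA2T3, was at -0.37 ± 0.09 (edgeR adjusted p = 0.00321) with 87.0 to 111 CPM in aged and 108 to 144 CPM in young mice. Zfp710 was at -0.19 (edgeR adjusted p = 0.0995) and not called. It was called lower in 5 other fits, among them that without TMM factors (-0.28, 0.0209), and was at -0.01 with the length correction.

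The members are spread over 19 chromosomes, with 50 of 203 on chromosome 7, 24 on chromosome 17 and 18 on chromosome 13. By a distance of at most 500 kb between neighbours and at least 4 members, 72 members fell into 10 clusters, and 72.2% of those carried the KRAB pattern against 31.5% of the members outside. In clusters 15 of 70 tested were lower and 8 higher, and outside 40 of 130 were lower and 6 higher, beside 23.0% lower and 22.4% higher over all genes. Chromosome 7 held 9 of the 14 rises. There 9 of 47 tested members were lower and 9 higher (19.1% each), and of its 695 other tested genes 22.2% were lower and 26.6% higher, so the share of rises there was not above that of other genes on it.

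Each cluster held few calls, and differences between clusters were not tested. Those given here were chosen after their values were seen, beside 23.0% of all genes called lower and 49.5% negative. At chr7:4915217-5038446, with no KRAB member, Zfp628, Zfp524 and Zfp784 of 5 were called higher and none lower. Its median exon length is 2159 bases, in a quintile where 31.9% of other genes were higher, and the call of Zfp524 was lost with the length correction. All 6 members at chr6:47835661-48445825 were negative, with 3 called lower and a median of -0.25, which includes Zfp467. The 11 KRAB members at chr17:21008941-22377281 were all negative too, at -0.81 to -0.06, with 3 called lower (27.3%), near the share of all genes. The 11 KRAB members at chr13:67038594-67683512 had a median of 0.00 with 2 lower (18.2%), and none of 5 at chr9:20345136-20595193 was called. Neighbours in a cluster may be relatives in sequence, which was not examined here, and cannot be taken as independent of each other.

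At the edge of the count rule, the members just inside were Zfp629 with 110 counts in all (7 to 12 per aged, 2 to 16 per young library) and Zfp760 with 176 (8 to 23 and 8 to 29), each reaching 10 counts in 6 libraries. Just outside was Zfp870 with 119 counts (8 to 18 per aged, 2 to 8 per young library), which reached 10 in 5 libraries. Of the 129 numbered genes outside, 28 had 0 counts in every library and 37 had 1 to 9 in all, so that this share of the family was at or near the floor in M-MDSCs of both ages.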

How the data were processed

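RNA-seq was analysed from M-MDSCs of 6 aged (24 months) and 6 young (6 months) mice, 1 library per mouse. The authors deposited whole-number counts of fragments per gene, made with featureCounts 2.0.0 over exons of a UCSC mm10 annotation, reverse-stranded, with both ends on 1 chromosome and mapping quality of at least 60. Exon length is the authors' value in the same table, deposited in bases as another kind of column. bcl2fastq is named in the submitters' processing notes, and the aligner is not given in the sources used here. The table has no row without a gene name, and 0 columns of values were left unassigned. Gene positions are those of the table (mm10).

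The counts were fitted here in R 4.3.3 with edgeR 4.0.16 (filterByExpr, TMM, quasi-likelihood test, two-sided, age as the only term, Benjamini-Hochberg adjustment over all 9742 genes tested, called under 0.05). DESeq2, which the study used, was an alternative, fitted here with age only. Fold changes and SE are on the log2 scale, and CPM use TMM-scaled totals. The biological coefficient of variation was 15.7%, and 3 counts were taken as the floor of a library, which covers counting error only. No 2 libraries of an age agreed within sampling noise (smallest chi-square per gene 1.72). The test was tried on simulated counts.

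Members and lists were chosen with earlier results of these data known. Named were the members of the role lists, the 10 largest falls and up to 5 largest rises among called members without overlap that averaged 1 CPM or more, the 5 highest in CPM per kilobase, the member with the smallest p, and members at the edge of the rule. Single genes beyond these (clusters, counts of 5 or fewer, the 3 not tested) were named after their values were seen. Alternatives were DESeq2 1.42.0, limma 3.58.1 (voom), totals without TMM, other filters, corrections for exon length and GC content, thinning, a replicate block, other like-length sets, and each library left out.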

Additional observations from a re-analysis of the deposited data

Results flagged for a closer look

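Of 86 groups looked at (43 named members in each age), 3 held a library whose gap to the nearest other, divided by the range of the group, was above Dixon's critical value for 6 samples, where chance alone flags about 1 group in 20. Zfp568 in young replicate 10 was at 17.8 CPM, and the other young mice were at 23.2 to 26.3 CPM. Zfp687 in aged replicate 4 was at 78.6 CPM, against 65.7 to 70.3 CPM in the other aged mice. Zfp91 in aged replicate 7 was at 65.8 CPM, against 51.7 to 55.9 CPM. Without the library concerned Zfp568, Zfp687 and Zfp91 were still called lower. Their cause was not tested. Such a gap does not show 2 libraries that deviate together. In Zfp276 young replicates 5 and 6 were at 150 and 159 CPM, and the other young mice at 78.4 to 91.0 CPM. In Zfp335 they were at 79.3 and 74.5 CPM, against 46.0 to 54.0 CPM in the other young mice.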

How the results depend on the processing

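Of 31 named members that were called, 19 were called in the same direction in each alternative fit that tested them, at most 23. With 1 library left out at a time, 43 to 58 members were called lower and 6 to 16 higher, the median log2 fold change was -0.15 to -0.11, and -0.11 to -0.06 relative to like-length genes. Of the main calls, 38 of 55 lower and 6 of 14 higher were made in all 12 of these fits. Totals without TMM gave 6 higher and a median of -0.21, with 62.2% of all genes' calls being lower, and turned Zfp281 to -0.041, Zfp219 to -0.012 and Zfp330 to -0.049. No filter on low counts gave 7 higher, where 14.6% of all genes were higher, and -0.13 relative to like-length genes. The correction for gene length gave 35 lower and a median of -0.060, and turned Zfp148 to 0.31, Zfp217 to 0.021, Zfp644 to 0.20, Zfp91 to 0.0087 and Zfp330 to -0.14. Thinning all libraries to the smallest total gave 7 higher, where 21.7% of all genes were higher. It gave -0.047 relative to like-length genes and 0.042 for Zfp644. DESeq2 called 54 lower and 11 higher, where 17.7% of all genes were lower and 19.2% higher. With limma-voom it was 56 and 12, where 23.1% and 21.6% of all genes were. The cause of these changes was not tested.

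Replicate numbers 1, 2, 5 and 6 occur in both ages. Libraries with the same number did not deviate together (correlations of -0.14, -0.07, -0.24 and -0.25), 0 of 8 correlated best with its own number, and nothing in the labels ties them, so they share a number alone. A replicate block on these 8 libraries gave 41 lower (20.2%) and 7 higher, where 18.9% of all genes were lower and 16.1% higher. It put Zfp281 at -0.032, Zfp219 at -0.011 and Zfp330 at -0.22, and ended the calls of Zfp148 (edgeR adjusted p = 0.165), Zfp263 (0.0951) and Zfp622 (0.254). The same 8 libraries with age alone, an alternative chosen after seeing the data, gave 51 lower and 10 higher. In that fit 23.5% of all genes were lower and 21.3% higher. Zfp281 was at -0.036, Zfp219 at -0.061 and Zfp330 at -0.21, and Zfp148 (edgeR adjusted p = 0.0728) and Zfp622 (0.136) were not called. Also chosen after seeing the data, leaving out aged replicates 1 and 2, the highest in macrophage markers, gave 40 lower and 11 higher, -0.055 relative to like-length genes and Zfp326 at 0.015, and a GC correction gave 53 and 12, with Zfp644 at 0.011 and Zfp219 at -0.032. With 1 library left out, Zfp330 ran from -0.072 (without aged replicate 4) to 0.12, and Zfp219 from -0.041 (without aged replicate 7) to 0.16, with -0.030 without young replicate 2. Members under a few CPM are limited by depth, most in the smallest young libraries.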
